A study of Homo sapiens with 6 samples.

Results

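The EGR and Kruppel-like factor (KLF) genes described here are 10 of the 58735 genes in the count table, taken by gene name: *EGR1*, *EGR3*, *KLF3*, *KLF4*, *KLF6*, *KLF7*, *KLF9*, *KLF10*, *KLF11* and *KLF13*. RNA was measured in OE33, an established epithelial line from a human esophageal adenocarcinoma, in 2 groups of 3 independent biological replicates. The ABS group was given acidified bile salts (ABS) at 200 µM and pH 4.0 in unsupplemented medium for 20 min, after which cells were washed and kept in complete medium for 6 h. Control (Ctrl) cells were untreated. Both groups are the same line without any genetic change, so each result is about a single line. No group is described with acid, bile salts, the exposure medium, or the wash and return to complete medium alone. Whether Ctrl cells had a change into unsupplemented medium is not in the labels. The parts of these steps in the ABS contrast cannot be told apart.

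EGR and KLF proteins are transcription factors that bind GC-rich DNA with 3 zinc fingers at or near the C-terminus. *EGR1* and *EGR3* are immediate-early genes: growth factors and stress turn them on within minutes through ERK, which acts on serum response factor (SRF) and its ETS partners at CArG boxes, and their mRNAs are short-lived. KLF proteins share similar fingers and differ in the rest of the protein, so that some mainly activate and others mainly repress. In the gut and esophagus, KLF4 is known for differentiation and KLF5 for proliferation of the epithelium.

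At 6 h after ABS none of the 9 tested EGR and KLF genes passed the threshold, an adjusted p of 0.05 over all 13768 tested genes in edgeR's quasi-likelihood test. Across all tested genes 0.436% passed. *KLF10*, *EGR1* and *KLF4* had 1.37, 1.32 and 1.24 times the control level, and *KLF3* and *KLF9* had 0.816 and 0.618 times. These 5 genes had an unadjusted edgeR p under 0.05, as did 9.75% of all tested genes. DESeq2 called 1 of the 9, *KLF10*, where it called 2.08% of all genes, and limma-voom called 0, where it called 0.45% of all. The median log2 fold change of the 9 was -0.12, against -0.0037 over all tested genes. In 3 of the 9, *KLF4* above control and *KLF3* and *KLF9* below, the libraries of the groups did not overlap, which was so in 14.5% of all tested genes. The tenth gene, *EGR3*, had too few reads to be tested. Bulk libraries cannot tell apart fewer cells that express a gene and less of its RNA per cell.

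Library totals lay between 22145676 and 25235686 counts. In both groups the library of replicate 3 differed most from the rest on the second principal component (25.9% of the variance), where ABS replicate 3 lay at -29.0 and Ctrl replicate 3 at -19.0, and the others between 2.73 and 18.5. On the first (28.4%), replicates 1, 2 and 3 lay at -18.4, -28.9 and -2.6 in ABS and at 21.6, 20 and 8.19 in Ctrl. The groups were thus nearest to each other there in replicate 3. Values within replicates 1 and 2 and within replicate 3 are therefore given below for the 9 tested EGR and KLF genes and for some genes of the lists. Replicate 3 gives 1 library per group. All 7 epithelial markers were tested and together held 488324 to 515640 counts per ABS library and 466453 to 504716 per Ctrl library. The 5 endothelial markers summed to 0 to 7 counts in ABS and 1 to 7 in Ctrl libraries. The 6 immune markers summed to 132 to 162 counts in ABS and 135 to 159 in Ctrl libraries, and the 6 fibroblast markers to 66 to 94 in ABS and 62 to 76 in Ctrl libraries. Of the immune list *PTPRC* was at 0 in every library, while *CD14* had 108 to 132 counts and *LYZ* 20 to 46. Of the fibroblast list *COL1A2* was at 0 in every library, while *COL1A1* had 62 to 83 counts.

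**Figure D1:**
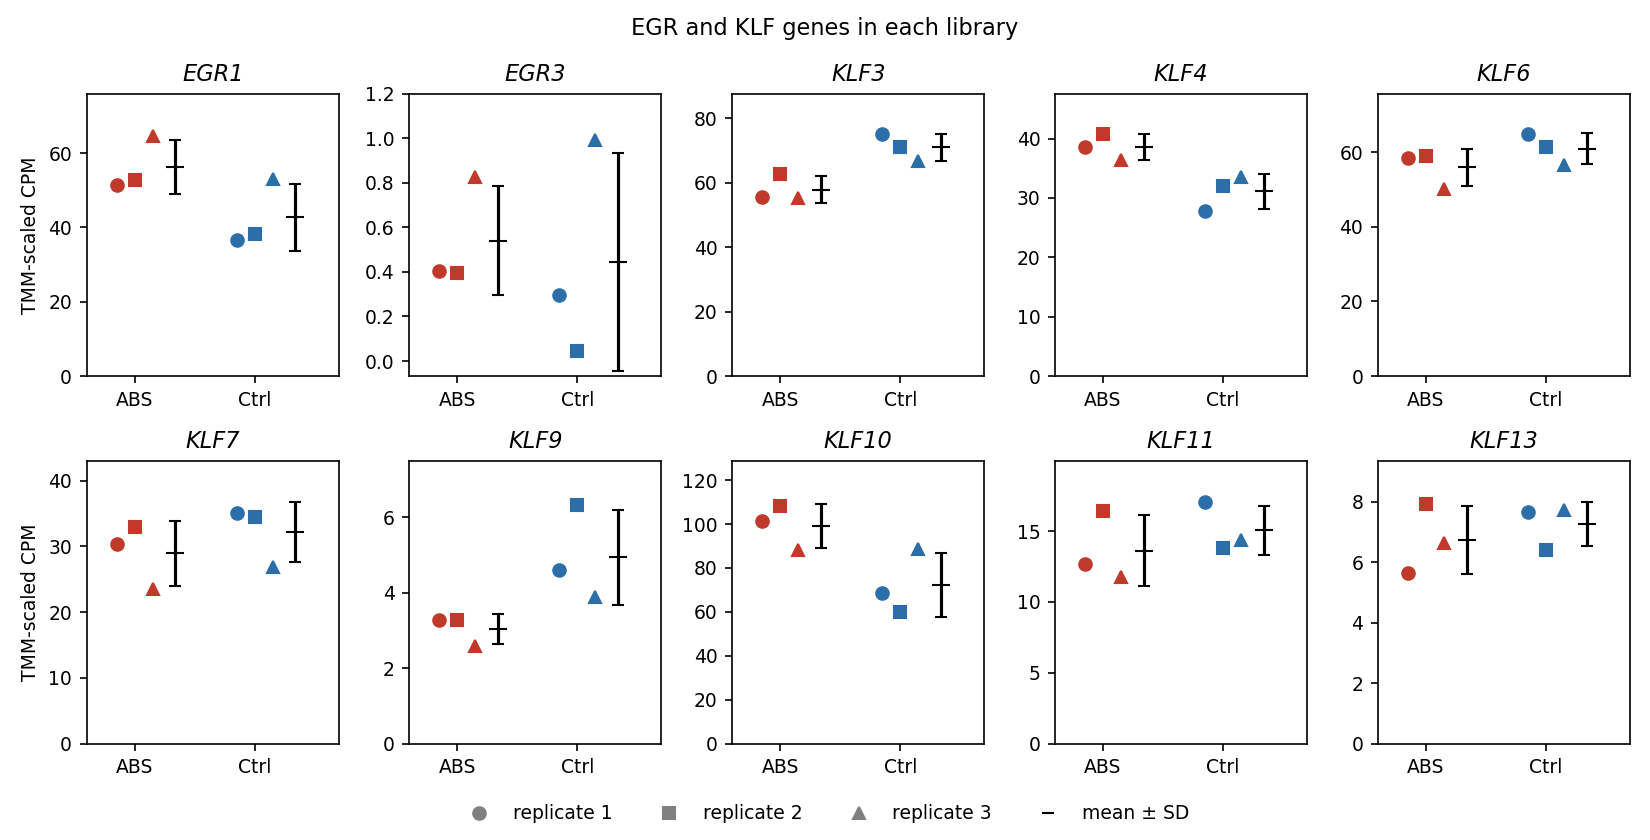
CPM (counts scaled to a common library size after TMM normalization) of the 10 genes in each library; symbols mark the replicate number and the black bar gives the group's mean ± SD (n = 3). *KLF4* lies wholly above control in ABS, *KLF3* and *KLF9* wholly below, and Ctrl replicate 3 reaches the ABS values for *EGR1* and *KLF10*.

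*EGR1* (ENSG00000120738, chromosome 5, 138465490 to 138469315, GRCh38, plus strand) encodes the best known immediate-early zinc finger factor. It had 51.4, 52.8 and 64.6 CPM in ABS replicates 1, 2 and 3, against 36.6, 38.3 and 53.1 CPM in Ctrl replicates 1, 2 and 3. The groups overlapped, since Ctrl replicate 3 lay above both lower ABS libraries, and replicate 3 was the highest library of each group. The log2 fold change was 0.40 ± 0.14 (SE), with a 95% interval of 1.07 to 1.62 times control and an edgeR adjusted p of 0.305. The difference was 0.48 on the log2 scale within replicates 1 and 2 and 0.28 within replicate 3. Without Ctrl replicate 3, a fit that called 3.1% of all genes, *EGR1* passed, at a log2 fold change of 0.59 and an edgeR adjusted p of 0.0101, and with any other library left out the edgeR adjusted p was between 0.336 and 0.856. It also passed in a fit with an added term for replicate 3 (0.41, edgeR adjusted p 0.00615).

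RefSeq promoter windows (build GRCh38.p14) were found for 7 of the 10 genes: *EGR1*, *KLF4*, *KLF6*, *KLF7*, *KLF9*, *KLF11* and *KLF13*. The 250 bases before the start are shown for *EGR1*, *KLF4* and *KLF9*, a higher pair and a lower gene by unadjusted p whose windows hold no annotated exon, so that the inputs an immediate-early promoter is known for can be read beside promoters of other KLF genes. Each runs 5′ to 3′ on the gene's strand, and capitals mark CArG boxes and GC boxes (GGGCGG on either strand). The windows are chr5:138465229-138465478 (plus strand), chr9:107489770-107490019 (minus strand) and chr9:70414658-70414907 (minus strand).
EGR1: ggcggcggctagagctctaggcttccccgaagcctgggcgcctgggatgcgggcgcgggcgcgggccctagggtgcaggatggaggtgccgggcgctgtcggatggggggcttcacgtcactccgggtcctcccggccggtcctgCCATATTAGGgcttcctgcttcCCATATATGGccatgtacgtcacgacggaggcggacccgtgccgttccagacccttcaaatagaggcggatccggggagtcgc
KLF4: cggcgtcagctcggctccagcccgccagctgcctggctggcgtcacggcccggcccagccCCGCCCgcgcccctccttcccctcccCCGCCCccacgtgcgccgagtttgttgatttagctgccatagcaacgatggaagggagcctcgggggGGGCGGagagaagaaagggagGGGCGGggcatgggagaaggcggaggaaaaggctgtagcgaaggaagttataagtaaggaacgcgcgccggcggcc
KLF9: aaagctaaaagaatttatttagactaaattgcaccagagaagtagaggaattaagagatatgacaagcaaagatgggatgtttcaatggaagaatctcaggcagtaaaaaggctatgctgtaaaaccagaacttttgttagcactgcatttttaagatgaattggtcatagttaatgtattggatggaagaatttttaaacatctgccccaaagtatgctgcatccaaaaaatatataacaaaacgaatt
The *EGR1* window held 2 CArG boxes, CCATATTAGG at -105 to -96 and CCATATATGG at -83 to -74 from the start, and a CRE core (TGACG on either strand) on each side of them. Among the other 6 genes 1 of the windows of *KLF7* held a CArG box, and 1.16% of 35116 RefSeq promoter windows of the same length held one. The *KLF4* window held 4 GC boxes and no CArG box, and its start lies inside the longer *KLF4* gene of the deposited table. *KLF7* has 4 and *KLF11* 2 windows, 11 in all for the 7 genes. GC boxes were found in 6 of these 11 windows, from 5 genes, and in 42.6% of all windows. The *KLF9* window held neither, and its GC content was 32.4%, against 68.4% for *EGR1* and 69.2% for *KLF4*. An EGR site (GCGGGGGCG or GCGTGGGCG on either strand) occurred in the window of *KLF6* alone among the 7 genes, and in 5.37% of all windows. CACCC, the box that many KLF proteins bind, was in 5 of the 11 windows, from 4 genes (*EGR1*, *KLF7*, *KLF11* and *KLF13*), and in 54.7% of all windows. Such matches are letters in a window and were not measured as bound.

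**Figure D2:**
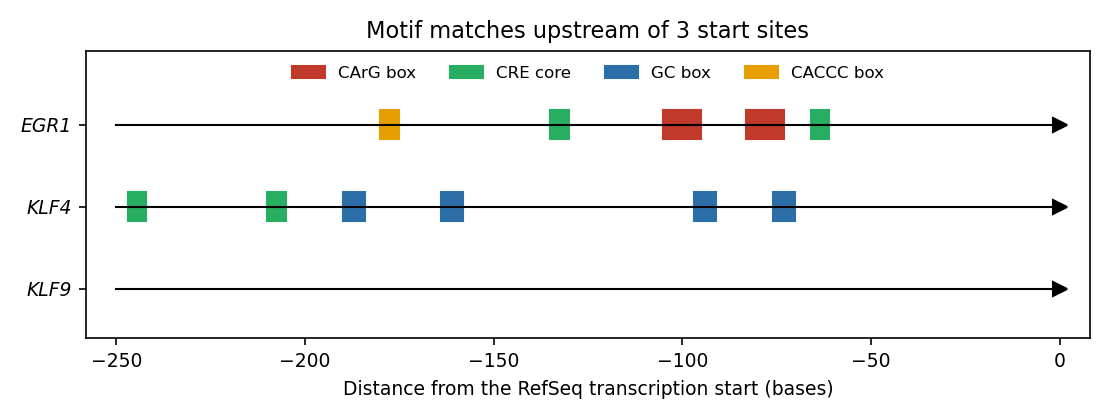
Motif matches in the 250 bases before 3 RefSeq starts, with the distance from the start in bases on the horizontal axis and coloured blocks for each motif. *EGR1* has 2 CArG boxes between -105 and -74, *KLF4* has 4 GC boxes, and *KLF9* has no match to these 4 motifs.

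*EGR3* (ENSG00000179388, chromosome 8, 22687659 to 22693302, minus strand), an EGR gene that can be turned on by EGR1 itself, was close to the limit of detection. It had 10, 9 and 21 counts in ABS replicates 1, 2 and 3, against 7, 1 and 24 counts in Ctrl replicates 1, 2 and 3. The highest library of each group was again replicate 3, and the groups overlapped. A count of 3, the limit that a count of 0 allows, was 0.119 to 0.135 CPM in these libraries. In the 5 alternative fits that kept *EGR3* its log2 fold change lay between -0.25 and 0.44, so these data give it no direction.

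*KLF10* (ENSG00000155090, chromosome 8, 102648779 to 102655902, minus strand), a repressor first described as an early gene of the TGF-beta response, had the smallest edgeR p of the 9 tested genes. It had 101, 108 and 88.3 CPM in ABS replicates 1, 2 and 3, against 68.6, 60.2 and 88.6 CPM in Ctrl replicates 1, 2 and 3. The replicate 3 libraries lay at the same level in both groups, and the groups overlapped through them. The log2 fold change was 0.45 ± 0.13 (SE), 1.13 to 1.66 times control by the 95% interval, with an edgeR adjusted p of 0.165. On the log2 scale the difference was 0.70 within replicates 1 and 2 and -0.0042 within replicate 3, a contrast that was not tested. Without Ctrl replicate 3 *KLF10* passed (log2 fold change 0.62, edgeR adjusted p 0.0031), and without any other single library the edgeR adjusted p was 0.0601 to 0.664. It passed with DESeq2 too (adjusted p 0.0288).

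*KLF11* (ENSG00000172059, chromosome 2, 10042849 to 10054836, plus strand), the closest relative of KLF10 and likewise a repressor that recruits SIN3A, had 12.7, 16.4 and 11.7 CPM in ABS libraries and 17.0, 13.8 and 14.4 CPM in Ctrl libraries. Its groups overlapped, and its log2 fold change was -0.15 with a 95% interval of 0.720 to 1.13 times control (edgeR adjusted p 0.82). *KLF10* and *KLF11* thus had estimates of opposite sign over all libraries, a difference that was not tested. The log2 difference of *KLF11* was -0.087 within replicates 1 and 2 and -0.29 within replicate 3. *KLF9* (ENSG00000119138, chromosome 9, 70384597 to 70414624, minus strand), another SIN3A-recruiting member and a well-known glucocorticoid and thyroid hormone target, had 3.27, 3.28 and 2.59 CPM in ABS replicates 1, 2 and 3, against 4.59, 6.33 and 3.89 CPM in Ctrl replicates 1, 2 and 3. All 3 ABS libraries lay below all 3 Ctrl libraries, and replicate 3 was the lowest of each group. Its log2 fold change, -0.69 ± 0.24 (SE), was the largest in size of the 9 and the least precise, resting on 66 to 81 counts in ABS and 94 to 139 in Ctrl libraries. The edgeR adjusted p was 0.304, and the 95% interval was 0.430 to 0.888 times control. On the log2 scale the *KLF9* difference was -0.71 within replicates 1 and 2 and -0.57 within replicate 3. *KLF13* (ENSG00000169926, chromosome 15, 31326855 to 31435665, plus strand), from the same SIN3A-binding branch, had 5.65, 7.91 and 6.63 CPM in ABS and 7.65, 6.42 and 7.74 CPM in Ctrl libraries. These overlapped widely, with a 95% interval of 0.708 to 1.21 times control. The log2 fold change of *KLF13* was -0.11 (edgeR adjusted p 0.905), with -0.067 within replicates 1 and 2 and -0.22 within replicate 3.

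*KLF4* (ENSG00000136826, chromosome 9, 107484852 to 107490482, minus strand), a regulator of epithelial differentiation and a pluripotency factor, had 38.6, 40.7 and 36.3 CPM in ABS replicates 1, 2 and 3, against 27.8, 32.0 and 33.5 CPM in Ctrl replicates 1, 2 and 3. Every ABS library lay above every Ctrl library, and the replicate 3 libraries were the nearest to each other. The log2 fold change was 0.31 ± 0.10 (SE), 1.07 to 1.44 times control, with an edgeR adjusted p of 0.262. The difference was 0.41 on the log2 scale within replicates 1 and 2 and 0.12 within replicate 3. *KLF6* (ENSG00000067082, chromosome 10, 3775996 to 3785281, minus strand), a tumor suppressor candidate of the activating branch, had 58.5, 59.0 and 50.2 CPM in ABS and 64.8, 61.4 and 56.6 CPM in Ctrl libraries. Its interval of 0.800 to 1.05 times control was the second narrowest of the 9 on the log2 scale. *KLF7* (ENSG00000118263, chromosome 2, 207074137 to 207167267, minus strand), the close relative of KLF6 known from neurons and fat cells, had 30.4, 32.9 and 23.5 CPM in ABS and 35.0, 34.5 and 26.9 CPM in Ctrl libraries. For both *KLF6* and *KLF7* replicate 3 was the lowest library of each group and the groups overlapped.

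*KLF3* (ENSG00000109787, chromosome 4, 38664196 to 38701042, plus strand) encodes a repressor that recruits CtBP. It had 55.7, 62.7 and 55.3 CPM in ABS replicates 1, 2 and 3, against 75.2, 71.0 and 66.7 CPM in Ctrl replicates 1, 2 and 3. The ABS libraries all lay below the Ctrl libraries. The log2 fold change was -0.29 ± 0.084 (SE), 0.719 to 0.926 times control, with an edgeR adjusted p of 0.179. It was -0.31 within replicates 1 and 2 and -0.27 within replicate 3, the closest match between the 2 sets among the 5 genes with an unadjusted edgeR p under 0.05. With the added term for replicate 3 *KLF3* passed (edgeR adjusted p 0.0289). In that fit 3 of the 9 genes passed, *EGR1* and *KLF10* higher and *KLF3* lower, against 3.38% of all tested genes. Within replicates 1 and 2 alone 4 passed, *EGR1*, *KLF4* and *KLF10* higher and *KLF3* lower, against 13.2% of all tested genes.

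**Figure D3:**
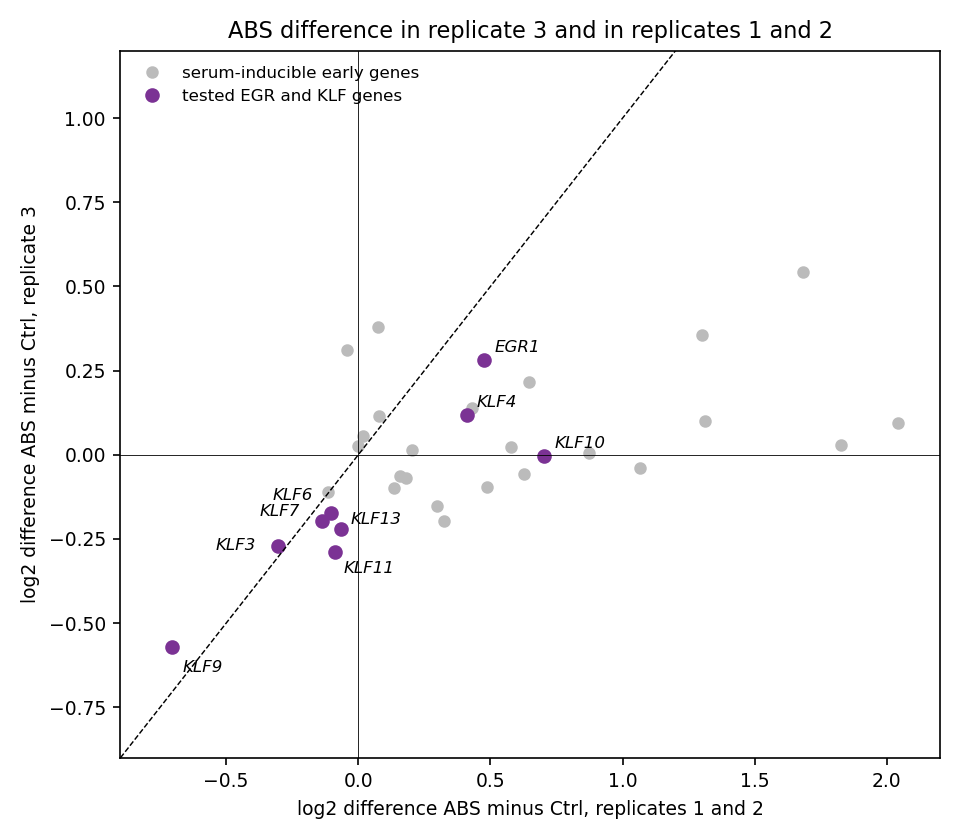
The log2 difference between ABS and Ctrl within replicates 1 and 2 (horizontal) and within replicate 3, 1 library per group (vertical), for the 9 tested EGR and KLF genes and 24 serum-inducible early genes; the dashed line marks equal values. Of the 9 genes *KLF10* lies at 0.70 and -0.0042, while *KLF3*, *KLF6* and *KLF7* lie nearest the line.

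Set side by side per gene length, as TPM (counts per gene length, scaled to a common sum), *KLF10* was the most abundant of the 10 in both groups, with 92.2 ± 7.26 TPM in ABS and 67.1 ± 16.5 TPM in Ctrl cells (mean ± SD, n = 3 each). *EGR1* followed with 66.9 ± 10.3 TPM in ABS and 50.4 ± 13.0 TPM in Ctrl cells. In ABS cells the order then ran *KLF4*, *KLF3*, *KLF6*, *KLF7*, *KLF11*, *KLF13*, *KLF9* and *EGR3*. Neighbours overlapped between *KLF3* and *KLF6*, *KLF7* and *KLF11*, and *KLF13* and *KLF9*. In Ctrl cells *KLF3* (41.5 ± 1.60 TPM) came next, then *KLF6* and *KLF4* (31.4 ± 3.93 TPM), and *KLF9* stood before *KLF13*. There the libraries of *KLF10* and *EGR1*, *EGR1* and *KLF3*, *KLF7* and *KLF11*, and *KLF9* and *KLF13* overlapped. The order of *KLF4* and *KLF3* per length thus differed between the groups. It depends on the deposited gene lengths, 3659 bases for *KLF4* and 6297 for *KLF3*. In CPM, without division by length, *KLF3* lay above *KLF4* in every library. Within each library the ratio of *KLF4* to *KLF3* per length, which does not depend on library scaling, was 1.19, 1.12 and 1.13 in ABS replicates 1, 2 and 3, against 0.635, 0.777 and 0.864 in Ctrl replicates 1, 2 and 3. This pair was chosen after its values were seen and was not tested. *KLF5*, not among the 10, stood far above them all with 262 ± 18.3 TPM in ABS and 243 ± 7.79 TPM in Ctrl cells.

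**Figure D4:**
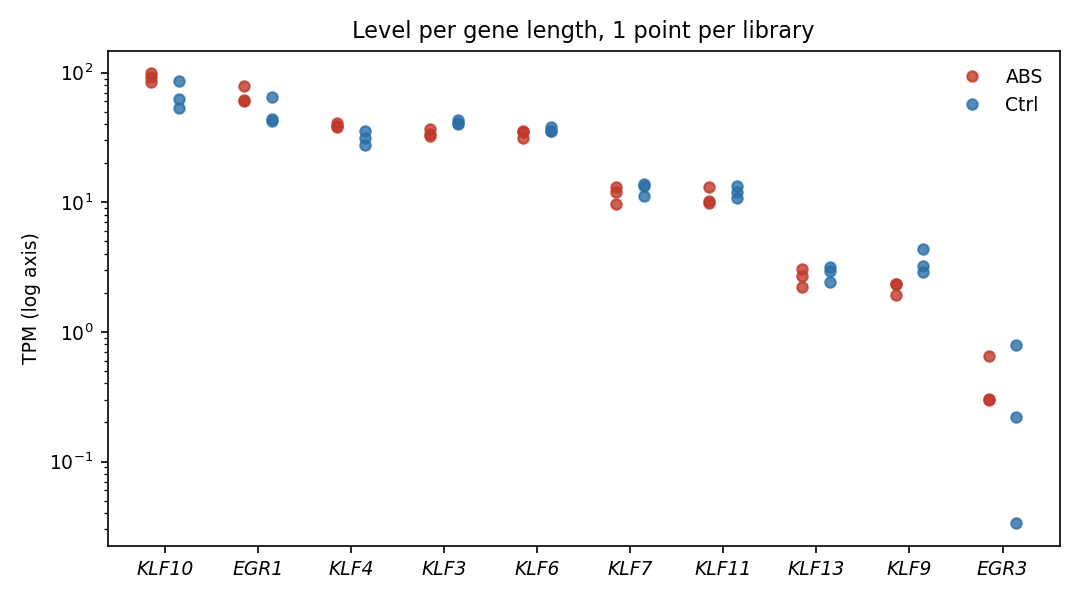
Level per gene length (TPM, log axis) of the 10 genes, 1 point per library, ordered by the ABS mean. *KLF4* lies above *KLF3* in ABS and below it in Ctrl libraries, and *EGR3* lies under 1 TPM in every library.

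Of the other EGR, KLF and SP genes, 13 of 21 were tested and 0 passed in edgeR. At an unadjusted edgeR p under 0.05 there were 3 higher and 1 lower, against 9.75% of all tested genes in either direction. DESeq2 called 1 higher, where it called 2.08% of all genes, and limma-voom called 0. The median log2 fold change of the 13 was 0.02. *EGR4*, another immediate-early EGR gene, had 3.03, 3.63 and 3.18 CPM in ABS against 1.83, 1.23 and 1.12 CPM in Ctrl replicates 1, 2 and 3, without overlap. Its log2 fold change of 1.23 ± 0.30 (SE; edgeR adjusted p 0.108) rested on 75 to 83 counts in ABS and 27 to 43 in Ctrl libraries, and unlike *KLF10* it had a log2 difference of 1.44 within replicate 3 and 1.10 within replicates 1 and 2. *KLF16*, which encodes a further repressor of the SIN3A-binding branch, averaged 61.6 ± 3.35 CPM in ABS and 73.5 ± 1.99 CPM in Ctrl cells (n = 3 each; log2 fold change -0.25, edgeR adjusted p 0.209). The deposited table puts 630 genes, the 10 among them, in its zf-C2H2 family. Of 390 tested, 1 rose (*PRDM1*, named after its value was seen, with an edgeR adjusted p of 0.0243, and of 0.122 to 0.198 without ABS replicate 1, ABS replicate 2 or Ctrl replicate 2), 0 fell, and the median log2 fold change was 0.10. An unadjusted edgeR p under 0.05 was found for 16.2% of the tested genes of that family and for 9.75% of all tested genes. Of all tested genes 0.436% passed, and the family was not tested against them.

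**Figure D5:**
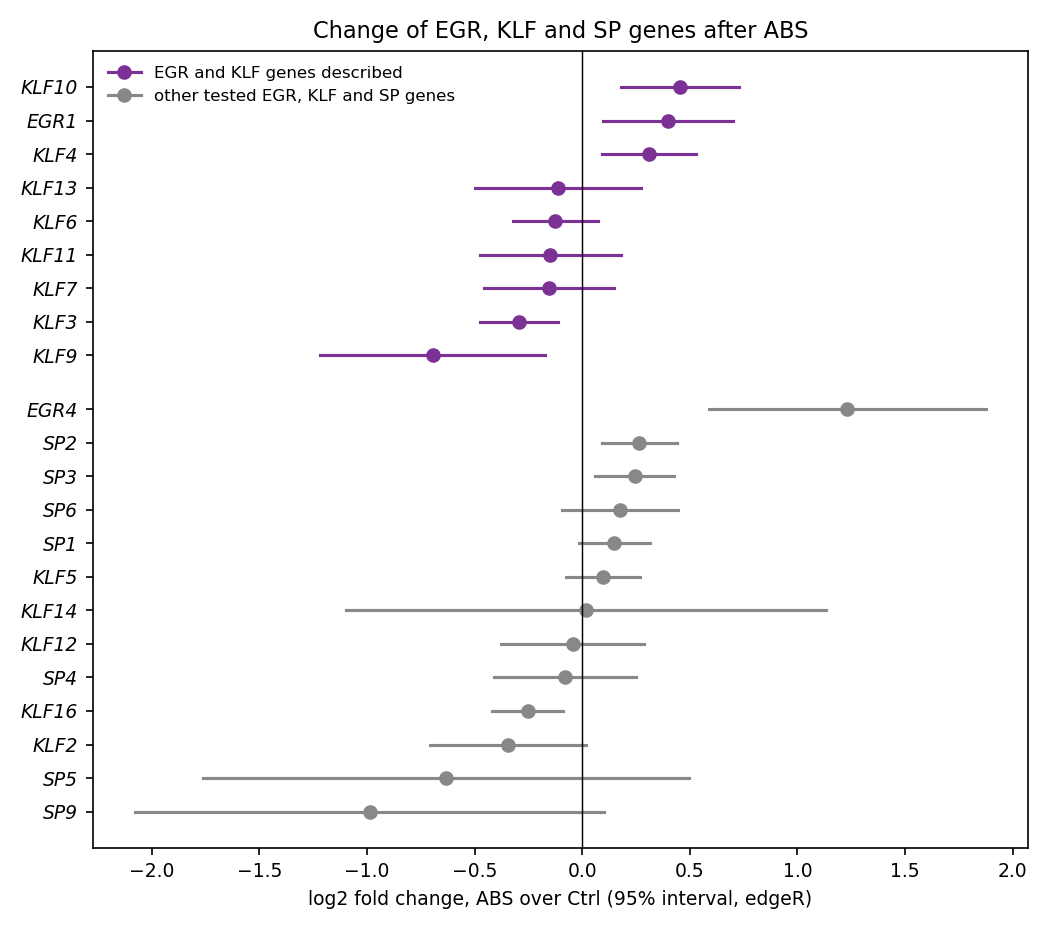
Log2 fold change of ABS over Ctrl with its 95% interval from edgeR for the 9 tested EGR and KLF genes (above) and 13 other tested EGR, KLF and SP genes (below). The intervals of *KLF10*, *EGR1* and *KLF4* lie above 0 and those of *KLF3* and *KLF9* below it before any adjustment; none of the 22 genes passed after adjustment.

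The partners and inputs of these factors were described from lists. All 17 cofactor genes were tested, and 0 passed in edgeR, DESeq2 or limma-voom. At an unadjusted edgeR p under 0.05, which 9.75% of all tested genes had, there was 1. That gene was *NAB2*, which encodes a corepressor that binds EGR proteins and is itself an EGR1 target. It had 37.6, 31.1 and 34.9 CPM in ABS and 39.1, 41.3 and 45.3 CPM in Ctrl replicates 1, 2 and 3, so the ABS libraries lay lower while those of *EGR1* had a higher mean. Its edgeR adjusted p was 0.331 at a log2 fold change of -0.28. *FBXW7*, whose ubiquitin ligase targets KLF5 and others, had 0.26 (edgeR adjusted p 0.632). Among SRF, ETS partner, ERK and MEF2 genes 16 of 17 were tested and 0 passed in edgeR, DESeq2 or limma-voom, with 1 at an unadjusted edgeR p under 0.05. This was *MEF2C*, a partner of ERK5 signalling (log2 fold change 0.66, edgeR adjusted p 0.355). *MRTFA*, an SRF coactivator, had -0.17 (edgeR adjusted p 0.623).

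Of 25 serum-inducible early genes, the group that *EGR1* belongs to, 24 were tested, and 2 rose and 0 fell in edgeR. At an unadjusted edgeR p under 0.05 there were 9 higher. Over all tested genes 0.436% passed and 9.75% had an unadjusted edgeR p under 0.05, in either direction. The 2 that rose were *FOSL1* (log2 fold change 0.49, edgeR adjusted p 0.0394) and *FOSB* (1.30, edgeR adjusted p 0.049). The log2 difference of *FOSL1* was 0.64 within replicates 1 and 2 and 0.22 within replicate 3. For *FOSB* these values were 1.68 and 0.54. The list's median was 0.24. Both calls were lost without ABS replicate 1, ABS replicate 2, Ctrl replicate 1 or Ctrl replicate 2 (edgeR adjusted p 0.184 to 0.277) and with library size alone, and *FOSB* was also lost with limma-voom and with a minimum mean of 1 CPM. The count of higher genes was 4 with DESeq2, 5 without ABS replicate 3 and 11 without Ctrl replicate 3, and 0 were lower in each. Of all genes 2.08% passed with DESeq2 and 3.1% without Ctrl replicate 3. Without ABS replicate 3 273 genes passed, a count whose share of all tested genes was not computed. The median difference of this list was 0.38 on the log2 scale within replicates 1 and 2 and 0.02 within replicate 3. Over the 9 EGR and KLF genes these medians were -0.087 and -0.20, and over all tested genes -0.0081 and -0.00079.

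All 15 genes known as targets of EGR1 were tested and 0 passed in edgeR. At an unadjusted edgeR p under 0.05 there were 1 higher and 4 lower, against 9.75% of all tested genes in either direction. DESeq2 called 1 higher, where it called 2.08% of all genes, and limma-voom called 0. The median of the 15 was 0.08. *GADD45A*, a growth arrest gene, averaged 41.4 ± 4.0 CPM in ABS and 29.7 ± 4.28 CPM in Ctrl cells (n = 3 each; log2 fold change 0.48, edgeR adjusted p 0.112). *TP73*, a p53 family gene, averaged 14.0 ± 2.26 CPM in ABS and 19.1 ± 0.786 CPM in Ctrl cells (-0.45, edgeR adjusted p 0.194). Without Ctrl replicate 3, where 3.1% of all genes passed, 3 of these targets passed as higher and 1 as lower. Without ABS replicate 3, where 273 genes passed in all, 1 passed as lower. The share of all tested genes in that fit was not computed, so this count has no share beside it. Of the KLF4 and KLF5 targets of epithelia, 15 of 18 were tested and 0 passed in edgeR, DESeq2 or limma-voom. An unadjusted edgeR p under 0.05 was found for 4 higher and 0 lower genes, against 9.75% of all tested genes. *KRT4*, a keratin of stratified epithelium, had 1.41 (edgeR adjusted p 0.438) at under 1 CPM in each library. *CDH1*, which encodes E-cadherin, had 0.18 (edgeR adjusted p 0.457).

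Of 15 TGF-beta pathway genes linked to *KLF10* and *KLF11*, 0 passed in edgeR. There were 1 higher and 2 lower at an unadjusted edgeR p under 0.05, against 9.75% of all tested genes in either direction. DESeq2 called 1 lower, where it called 2.08% of all genes, and limma-voom called 0. *ID1*, a target of the related BMP branch, had 268, 280 and 315 CPM in ABS and 425, 417 and 304 CPM in Ctrl replicates 1, 2 and 3, with a log2 difference of 0.05 within replicate 3. Without Ctrl replicate 3, where 3.1% of all genes passed, 1 of the TGF-beta genes passed as higher and 1 as lower. Also passing as higher were 2 KLF4 and KLF5 targets, 1 cofactor gene and 1 of the other EGR, KLF and SP genes. *TGFB1*, the ligand, had a log2 fold change of -0.21 (edgeR adjusted p 0.301). Of 12 glucocorticoid-inducible genes, set beside *KLF9*, 11 were tested, and 1 rose and 1 fell in edgeR, against 0.436% of all tested genes. *CEBPD*, a C/EBP transcription factor gene, rose (0.79, edgeR adjusted p 0.00925), and *ERRFI1*, an inhibitor of the EGF receptor, fell (-0.55, edgeR adjusted p 0.00498). Within replicates 1 and 2 their log2 differences were 0.88 and -0.56, and within replicate 3 they were 0.61 and -0.53. Without ABS replicate 1, Ctrl replicate 1 or Ctrl replicate 2 neither passed (edgeR adjusted p 0.0561 to 0.112), and without ABS replicate 2 *CEBPD* did not pass (0.0523). The median was 0.01.

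The 5 of 9721 other protein-coding genes whose pattern over the 6 libraries was nearest to that of *KLF10*, by the root mean square difference of centred log2 CPM, were *CSRNP1* (0.0485), *RND3* (0.0491), *ZNF518A* (0.0512), *OCLN* (0.0556) and *BRMS1L* (0.0618). *RND3* had 147, 146 and 122 CPM in ABS and 94.2, 89.0 and 121 CPM in Ctrl replicates 1, 2 and 3. As the selection required, *RND3* had the pattern of *KLF10*, with Ctrl replicate 3 at the level of ABS replicate 3. None of the 5 passed, at edgeR adjusted p of 0.119 to 0.402, and neither did *KLF10*, which they were picked to match (0.165).

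Counting could mix reads between similar or overlapping genes, since neither the use of strand nor the handling of multi-mapped reads is given in the sources used here. The 7 annotated genes that overlap a member's span, *KLF3-AS1* among them, held at most 6 counts in any library, and the 4 pseudogenes named after *KLF3*, *KLF4* or *KLF7* at most 3.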

How the data were processed

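The authors deposited 1 table of raw counts per gene with 6 library columns; per the submitters' processing notes, HISAT2 2.0.5, featureCounts 1.5.0-p3 and GRCh38 were used. Per the labels, RNA was polyadenylated. The annotation release is not given in the sources used here. Groups and replicate numbers came from the sample titles. From the counts, genes were kept by filterByExpr in edgeR 4.0.16 (minimum count 10, minimum total 15; R 4.3.3), scaled by TMM and compared by the quasi-likelihood F-test with group as the only term and Benjamini-Hochberg adjustment. The SE is the log2 fold change divided by the square root of F. Within replicates, differences were taken in log2 CPM (prior count 2). TPM used the gene lengths deposited by the authors. DESeq2 1.42.0 and limma 3.58.1 served as alternatives, beside other scalings, filters and left-out libraries. Limits from counts cover counting error only. The fit was also run on simulated counts with the same extra variation for every gene and no shift of any replicate. That run therefore does not bear on the replicate shifts described above. The 10 genes, the lists and the fits that set replicate 3 apart were chosen with earlier results of these data known. Genes were named as follows: the 10, genes of a list past the threshold (up to 4, or else the 2 of smallest p), and 5 genes of similar pattern with a mean of at least 5 CPM. *MRTFA* and *MRTFB* had been listed under older symbols.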

Additional observations from a re-analysis of the deposited data

How the results depend on the processing

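The 9 tested EGR and KLF genes kept the sign of their log2 fold changes in all 16 alternatives. None passed with RLE scaling, library size alone, limma-voom, a robust fit or a minimum mean of 1 CPM. With DESeq2 1 passed (*KLF10*), without a filter 2 (*EGR1* and *KLF10*), with a term for the replicate 3 libraries 3 and within replicates 1 and 2 only 4. With single libraries left out the count was 0 to 2, and the 2, *EGR1* and *KLF10*, passed only without Ctrl replicate 3. Over all genes 60 passed, against 57 to 70 with RLE scaling, limma-voom, the robust fit and the minimum mean. The count was 35 with library size alone, 264 with DESeq2, 409 without a filter, 465 with the term, 1813 within replicates 1 and 2, and 12 to 438 with 1 library left out. The cause of these shifts was not tested. The replicate numbers were not taken to pair the samples: deviations of same-numbered libraries had correlations over genes of 0.0425, 0.0333 and 0.167, and ABS replicate 2 was closer to Ctrl replicate 1. The replicate 3 libraries correlated positively only with each other. ABS replicate 3 had -0.125 and -0.0581 with Ctrl replicates 1 and 2, and Ctrl replicate 3 had -0.0667 and -0.116 with ABS replicates 1 and 2. With a replicate block 2 of the 9 genes passed (*EGR1* and *KLF10*) and 350 of all genes. Depth limits *EGR3* and *KLF9*, whose counts were the lowest of the 10.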
